A study of Homo sapiens with 6 samples.

Results

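The genes described here encode 9 proteins of the cell surface that are used as markers of carcinoma cells and of their stem-like fraction, EPCAM, MUC1, CD24, PROM1, MCAM, ALCAM, L1CAM, CD9 and CD151. They were compared in Panc-1, a single established line from a human pancreatic adenocarcinoma, on Affymetrix Human Genome U133 Plus arrays. The untreated group held 3 arrays and the TGFβ group 3, which the labels number 1 to 3 within each group. The study's methods state triplicate experiments and a paired test, and arrays of the same number were taken here as pairs. After 24 h of serum starvation the treated cultures received porcine TGFβ1 at 5 ng/mL for 48 h, as the labels have it. The study's methods state this dose in another unit, and the conflict is not settled here. Members were all probe sets that the platform annotation assigned to only one of the 9 genes. They were 22 of the 54613 probe sets that are not controls, for 9 of the 19777 genes named by a probe set of their own.

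TGFβ is a cytokine that drives the epithelial-mesenchymal transition (EMT), a programme that loosens the contacts between epithelial cells and makes them motile. The surface proteins of an epithelial cell include adhesion molecules that bind neighbouring cells, mucins that hold them apart, and tetraspanins, which gather integrins and other partners into membrane patches. Several of these proteins are used to sort carcinoma cells with stem-like behaviour, and antibodies to EpCAM are used to capture tumour cells from blood.

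The messages of the 9 genes moved in both directions with TGFβ. CD24 fell 2.50-fold, EPCAM 1.74-fold, ALCAM 1.40-fold and MUC1 1.27-fold, whereas MCAM rose 2.52-fold and CD151 1.58-fold (n = 3 arrays per group, limma with Benjamini-Hochberg adjustment). L1CAM and CD9 did not pass the test, and PROM1 lay under the signal limit on all arrays. Thus 6 of the 8 genes with a measured value changed, 2 higher and 4 lower. By the methods' t-test on log2 values with the same adjustment over all genes, 3 of them, CD24, MCAM and CD151, were past the threshold, while EPCAM (adjusted p = 0.0787), ALCAM (0.0615) and MUC1 (0.0886) were not, and on linear values MCAM was not either (0.0551). Among all 10115 genes tested, 58.7% changed by limma, 27.7% higher and 31.0% lower. By the methods' own test with this adjustment, 2414 of these 10115 genes were past the threshold on log2 values and 2337 on linear values. MCAM and CD24, 2 of the 8 genes, changed by at least 2-fold, against 4.43% of all genes. The TGFβ and untreated arrays did not overlap for 6 of the 8 genes, against 68.2% of all genes.

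All levels are log2 signals, and a difference is the mean of the TGFβ arrays minus the mean of the untreated arrays, given with its standard error (SE) from the model. A probe set was measured if the mean of its log2 signals reached 6.64, the log2 of a signal of 100, in either group. A gene's level is the mean over its measured probe sets. Of the 22 probe sets, 15 were measured and 7 were not. Of these 15, 12 changed, 2 higher and 10 lower, against 55.1% of all 19101 probe sets tested. CD24 alone gave 6 of the 10 lower ones, so these counts do not stand for separate genes. A level depends on the probes as well as on the message, so levels were not compared between probe sets or genes. The array medians were 5.14 to 5.21, and the median log2 difference over all genes was -0.013.

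The signal of each gene on each array is shown in the plot of the 9 genes by array.

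**Figure D1:**
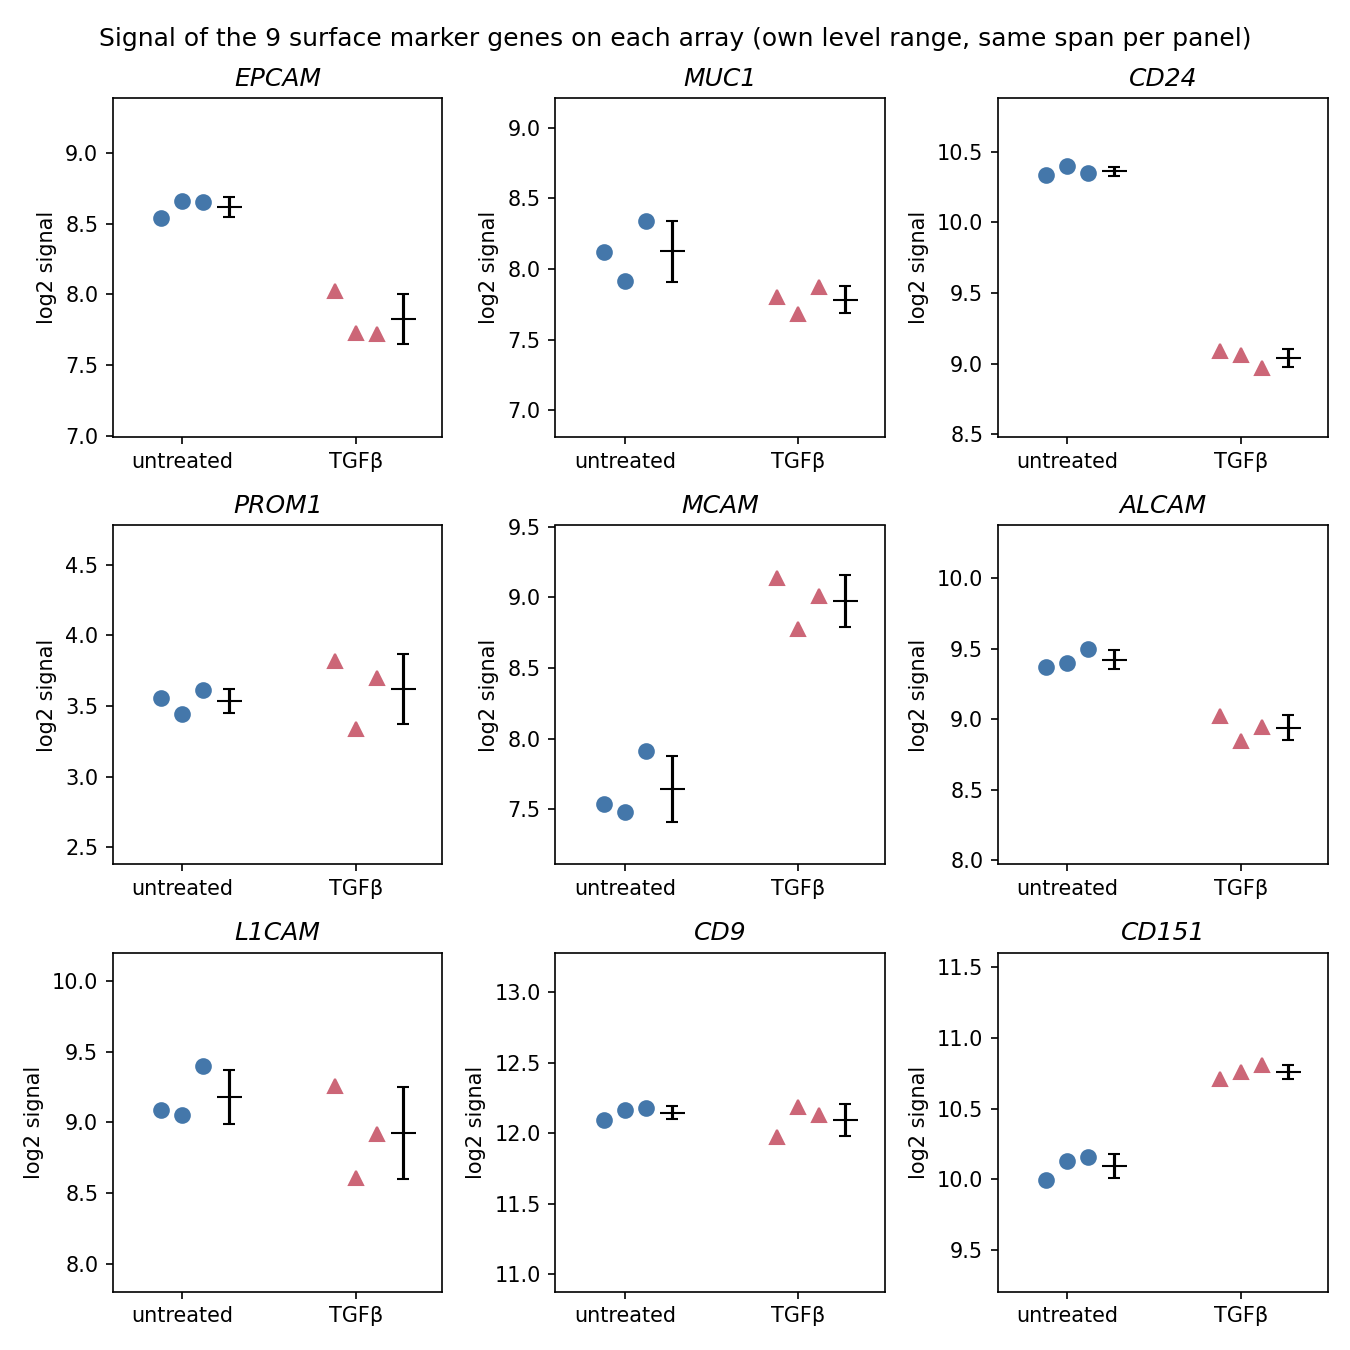
Log2 signal (y axis) of each of the 9 genes on the 3 untreated arrays (circles) and the 3 TGFβ arrays (triangles), in the order of replicates 1 to 3, with the group mean ± SD beside them; each panel has its own level range and the same span. The groups are apart for EPCAM, MUC1, CD24, MCAM, ALCAM and CD151 and overlap for L1CAM, CD9 and PROM1, whose only probe set is below the signal limit.

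Among the genes of epithelial and stem-like markers, CD24 (Entrez 100133941) showed the largest fall of the 8 genes measured. It encodes a small, heavily glycosylated protein held in the membrane by a GPI anchor, and it is a ligand of P-selectin. The gene stood at 10.34, 10.40 and 10.35 on untreated arrays 1, 2 and 3 and at 9.09, 9.06 and 8.97 on the TGFβ arrays. Every TGFβ array was below every untreated array by over 1 log2 unit, and the arrays of a group lay close together. The mean went from 10.36 ± 0.031 to 9.04 ± 0.065 (SD, n = 3), a difference of -1.32 (SE 0.052, adjusted p = 1.53e-05 by limma).

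CD24 was also the gene with the most probe sets, and all 6 were measured and fell. The smallest fall was that of 209772_s_at, which stood at 9.59, 9.75 and 9.51 untreated and at 8.41, 8.65 and 8.33 with TGFβ, a difference of -1.15 (SE 0.055). The largest was that of 266_s_at, at 10.09, 10.05 and 10.17 untreated and 8.69, 8.57 and 8.61 with TGFβ, a difference of -1.48 (SE 0.060). In both probe sets the groups were apart. The other 4 differed by -1.24 (208650_s_at), -1.28 (208651_x_at), -1.36 (209771_x_at) and -1.41 (216379_x_at). Names ending in _s_at or _x_at mark probe sets whose probes can also match other transcripts, and CD24 is known to have processed pseudogenes. How much of the signal comes from such copies was not tested.

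EPCAM (Entrez 4072), which encodes the epithelial cell adhesion molecule, a protein of cell-cell contacts that is cut within the membrane to release a signalling fragment, was read by 1 probe set. Its level was 8.54, 8.67 and 8.66 on the untreated arrays and 8.03, 7.73 and 7.72 on the TGFβ arrays. The groups did not overlap, and TGFβ array 1 was the highest of its group. EPCAM fell from 8.62 ± 0.071 to 7.82 ± 0.18 (SD, n = 3), a difference of -0.80 (SE 0.094, adjusted p = 0.000781). Between arrays of the same number the differences were -0.51, -0.94 and -0.94, so replicate 1 showed the smallest fall.

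MUC1 (Entrez 4582) encodes a transmembrane mucin of the apical surface of duct cells, whose long O-glycosylated stalk carries the carbohydrate antigens read in pancreatic cancer. The gene's level was 8.12, 7.91 and 8.34 untreated and 7.80, 7.68 and 7.87 with TGFβ. The groups did not overlap, but the lowest untreated array and the highest TGFβ array were close. The difference was -0.34 (SE 0.061, adjusted p = 0.00411 by limma), the smallest of the 6 that passed the test.

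Of the 3 probe sets of MUC1, 1 fell, 1 did not pass the test and 1 was not measured. Probe set 213693_s_at gave 8.79, 8.68 and 8.79 untreated and 8.35, 8.15 and 8.46 with TGFβ, a difference of -0.43 (SE 0.063, adjusted p = 0.00198). Probe set 207847_s_at gave 7.45, 7.15 and 7.90 untreated and 7.25, 7.21 and 7.29 with TGFβ. Its groups overlapped and its difference of -0.25 (95% interval -0.55 to 0.051, adjusted p = 0.132 by limma) did not pass the test, with an untreated SD of 0.38. It was -0.40 (adjusted p = 0.0394 by limma) without replicate 2 and -0.070 (adjusted p = 0.601) without replicate 3. The last of them, 211695_x_at, was below the signal limit, at 5.63 untreated and 5.50 with TGFβ. Whether the probe sets of MUC1 differ from each other was not tested.

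PROM1 (Entrez 8842) encodes prominin-1, or CD133, a pentaspan protein of membrane protrusions and a marker of stem-like cells in several carcinomas. Its 1 probe set stood at 3.56, 3.45 and 3.61 untreated and at 3.82, 3.34 and 3.70 with TGFβ. All 6 arrays were under the signal limit of 6.64, and the groups overlapped. Without the limit the difference was 0.080 (95% interval -0.11 to 0.27, adjusted p = 0.525 by limma), so no change of PROM1 was detectable with this probe set.

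Among the adhesion molecules of the immunoglobulin superfamily, MCAM rose, ALCAM fell and L1CAM did not pass the test. MCAM (Entrez 4162) encodes CD146, the melanoma cell adhesion molecule, which is also present on endothelium and pericytes. The probe set that names it alone and was measured, 209087_x_at, stood at 7.54, 7.48 and 7.91 untreated and at 9.14, 8.77 and 9.01 with TGFβ. Each TGFβ array was above each untreated array. MCAM went from 7.64 ± 0.23 to 8.97 ± 0.18 (SD, n = 3), a difference of 1.33 (SE 0.095, adjusted p = 0.000118 by limma). Same-numbered arrays differed by 1.60, 1.29 and 1.10. The _x_at name of this probe set marks probes that can also match other transcripts, and the part of such signal was not tested.

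A second probe set of MCAM alone, 1568191_at, was below the limit at 5.13 untreated and 5.19 with TGFβ. With it included, the gene's difference was 0.70, still past the test. The platform also assigns 4 measured probe sets to both MCAM and MIR6756, a microRNA gene that lies inside MCAM. The 3 named 209086_x_at, 210869_s_at and 211340_s_at were higher with TGFβ by 1.00, 1.47 and 1.31, and their groups did not overlap. The fourth, 211042_x_at, stood at 7.85, 7.85 and 7.70 untreated and at 7.95, 7.85 and 7.88 with TGFβ. Its groups overlapped, and its difference of 0.092 (95% interval -0.057 to 0.24, adjusted p = 0.244 by limma) did not pass the test. When all measured MCAM probe sets were averaged, a setting chosen after the data were seen, the difference was 1.04 (SE 0.086, adjusted p = 0.000203).

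Because MCAM also marks other cells, the markers of these cells were read on the same arrays. The level of 0 of 6 endothelial markers and 0 of 7 markers of fibroblasts and pericytes reached the signal limit. The summed signal of the endothelial markers was 124 to 130 on untreated and 118 to 127 on TGFβ arrays, and that of the fibroblast and pericyte markers 132.0 to 136.4 and 132.7 to 139.7. In both sums the ranges of the groups overlapped. ESAM, an adhesion molecule of endothelial junctions outside this marker list, went from 5.43 to 7.08 and so passed the limit with TGFβ.

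ALCAM (Entrez 214) encodes CD166, which binds itself on neighbouring cells and CD6 on T cells. Its level was 9.37, 9.40 and 9.50 on untreated arrays and 9.02, 8.85 and 8.95 on TGFβ arrays. The groups were apart. ALCAM fell from 9.42 ± 0.067 to 8.94 ± 0.089 (SD, n = 3), a difference of -0.48 (SE 0.061, adjusted p = 0.00101 by limma). Both measured probe sets fell, 201951_at by 0.42 and 201952_at by 0.54 on the log2 scale. The other one, 1569362_at, was below the limit at 3.79 and 3.74.

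L1CAM (Entrez 3897) encodes a neuronal adhesion molecule of axon growth that is also found on invasive carcinoma cells. Its measured probe set, 204584_at, stood at 9.09, 9.05 and 9.40 untreated and at 9.26, 8.60 and 8.92 with TGFβ. TGFβ array 1 lay among the untreated arrays, while TGFβ arrays 2 and 3 were below all of them. The difference was -0.25 (SE 0.13, 95% interval -0.57 to 0.060, adjusted p = 0.137 by limma), with pairs of 0.17, -0.45 and -0.48. Without replicate 1 it was -0.46 (adjusted p = 0.000234), past the test. The second probe set, 204585_s_at, was below the limit at 6.31 and 6.26.

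The pairs of arrays with the same number are set side by side in the plot of differences by replicate.

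**Figure D2:**
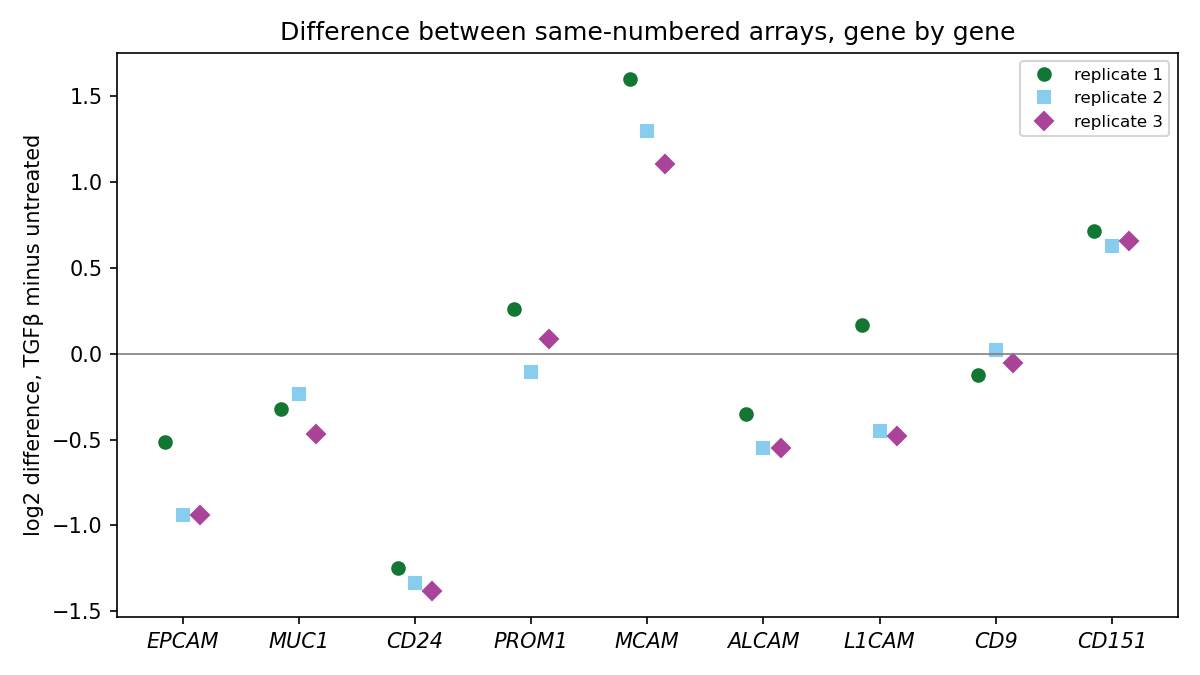
Difference in log2 signal between the TGFβ and the untreated array of the same replicate number (y axis) for each of the 9 genes (x axis), with 1 symbol per replicate; the line marks no difference. The 3 pairs of CD24, CD151 and ALCAM lie close together, those of MCAM run from 1.10 to 1.60, and L1CAM, CD9 and PROM1 have pairs on both sides of the line.

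Of the tetraspanins among the 9 genes, CD151 rose and CD9 did not pass the test. CD151 (Entrez 977) encodes the tetraspanin that binds the laminin-binding integrins directly. Its 1 probe set stood at 10.00, 10.13 and 10.16 untreated and at 10.71, 10.76 and 10.81 with TGFβ. The groups were apart, and the pairs of arrays were closely alike, at 0.71, 0.62 and 0.65. CD151 rose from 10.09 ± 0.086 to 10.76 ± 0.051 (SD, n = 3), a difference of 0.66 (SE 0.049, adjusted p = 0.000139 by limma).

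CD9 (Entrez 928) encodes a tetraspanin of the cell surface and of exosomes that takes part in cell fusion and motility. Its measured probe set, 201005_at, stood at 12.10, 12.16 and 12.18 untreated and at 11.97, 12.18 and 12.13 with TGFβ. The arrays of both groups overlapped. The difference was -0.052 (SE 0.053, 95% interval -0.18 to 0.077, adjusted p = 0.428 by limma), so a fall or rise as large as that of CD151 lies outside the interval. The other 2 probe sets of CD9, 233317_at and 233322_at, were below the limit.

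**Figure D3:**
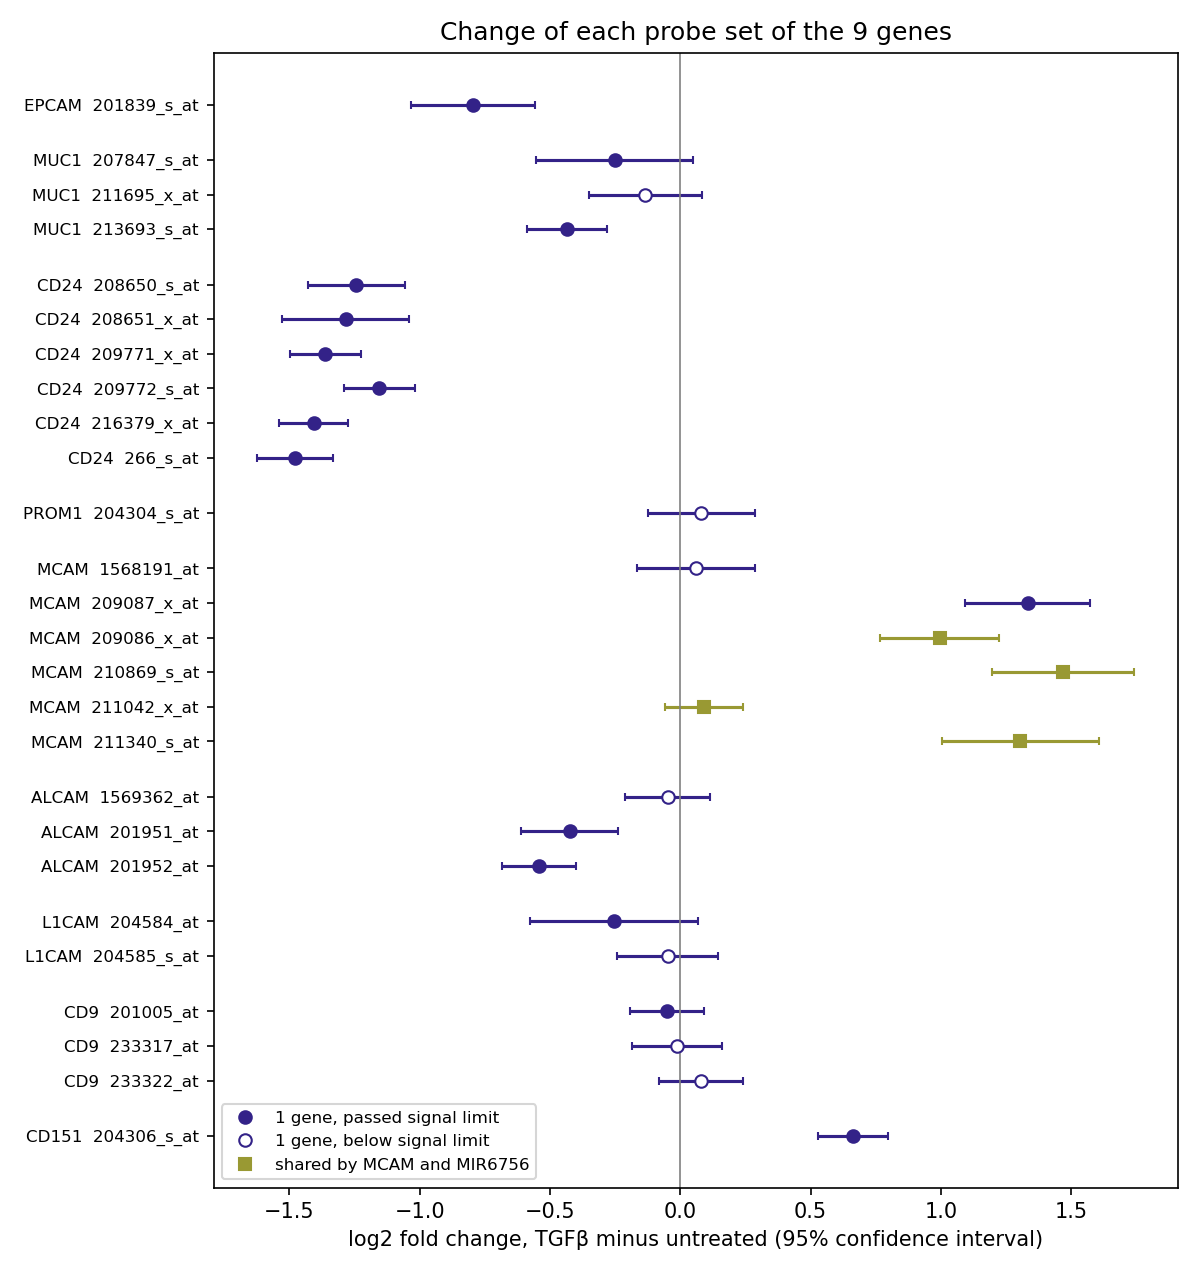
Log2 fold change, TGFβ minus untreated, with its 95% confidence interval (x axis) for each probe set of the 9 genes (y axis); filled circles passed the signal limit, open circles did not, and squares are the 4 probe sets shared by MCAM and MIR6756. All 6 probe sets of CD24 lie between -1.48 and -1.15, and the probe sets below the limit all have intervals that include 0.

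The sequence before the start of transcription is shown for the genes that changed and have a window in the RefSeq promoter table (GRCh38.p14), to set their motifs beside the direction of change. The motifs searched on both strands were the E-box CACCTG or CAGGTG, which the EMT repressors of the SNAI and ZEB families bind, and the SMAD motif CAGAC or GTCTG, bound by the effectors of TGFβ signalling. Capitals mark these letters, in the 250 bases before the first listed start, 5′ to 3′ on the strand of the gene. The matches did not overlap each other.
CD24 (chr6:106975628-106975877, minus strand): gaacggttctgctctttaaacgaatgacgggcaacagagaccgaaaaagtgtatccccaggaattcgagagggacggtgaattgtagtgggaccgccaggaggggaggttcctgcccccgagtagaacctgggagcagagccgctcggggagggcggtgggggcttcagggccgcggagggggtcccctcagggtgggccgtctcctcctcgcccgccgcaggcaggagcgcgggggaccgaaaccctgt
ALCAM (chr3:105366659-105366908, plus strand): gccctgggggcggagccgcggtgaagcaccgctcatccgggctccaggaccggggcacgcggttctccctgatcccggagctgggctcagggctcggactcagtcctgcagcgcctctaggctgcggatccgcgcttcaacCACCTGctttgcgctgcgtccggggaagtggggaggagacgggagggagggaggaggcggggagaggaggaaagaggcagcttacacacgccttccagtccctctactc
MUC1 (chr1:155192916-155193165, minus strand): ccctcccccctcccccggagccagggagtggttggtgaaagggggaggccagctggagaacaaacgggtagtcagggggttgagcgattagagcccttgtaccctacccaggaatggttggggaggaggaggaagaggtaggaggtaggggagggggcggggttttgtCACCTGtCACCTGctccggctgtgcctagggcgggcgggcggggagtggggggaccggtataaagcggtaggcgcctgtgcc
MCAM (chr11:119317131-119317380, minus strand): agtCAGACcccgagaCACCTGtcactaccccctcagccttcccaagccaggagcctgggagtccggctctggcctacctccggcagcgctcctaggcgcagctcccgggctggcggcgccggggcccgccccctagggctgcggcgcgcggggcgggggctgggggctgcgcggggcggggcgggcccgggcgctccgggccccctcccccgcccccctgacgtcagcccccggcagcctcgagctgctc

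Of the 3 genes printed that fell, MUC1 has 2 adjacent E-boxes, ALCAM has 1 and CD24 has none in these bases. MCAM, which rose, has 1 E-box and 1 SMAD motif. Among all 35116 windows of 300 bases in the table, which run to 50 bases after the start and partly overlap, 20.6% held an E-box, 3.49% at least 2, and 45.3% a SMAD motif. Counted over such full windows, 2 of the 3 windows of CD24 held 1 SMAD motif each and the other held 1 E-box. L1CAM and CD9, which did not pass the test, also held the SMAD motif. Each of the 2 windows of L1CAM held 1, and the 4 windows of CD9 held 2, 0, 1 and 1. CD9 window 3 held 1 E-box as well. A match is a stretch of letters only, and binding was not measured. EPCAM and CD151 have no window in the table.

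The relatives and partners of these genes were read from lists of their families, leaving the 9 genes themselves out. Beside each count of a list stands the share over all genes tested, of which 27.7% rose and 31.0% fell by limma. That share is for the main setting, where 2799 of all genes rose. Without the signal limit 2517 of the 19777 genes rose. The number was 2096 without replicate 2, 2281 without replicate 3 and 2400 with each array centred on its median. It is not given here for an adjusted p under 0.01. In the tetraspanin list, 19 of 30 genes on the array were measured, and 6 rose, 7 fell and 6 did not pass the test, with a median log2 difference of -0.086. TSPAN4 fell by 1.27 (SE 0.054) on the log2 scale, while TSPAN15 rose by 1.06 (SE 0.083) and TSPAN12 by 0.92 (SE 0.047). TSPAN15 belongs to the tetraspanins that escort the protease ADAM10. CD63 (difference -0.0041, adjusted p = 0.949), CD81 (-0.095, adjusted p = 0.199) and CD82 (0.13, adjusted p = 0.238), which like CD9 are common on exosomes, did not pass the test by limma. Without replicate 1, CD82 was at 0.25 (adjusted p = 0.00566) and past it.

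Of 15 measured partners of tetraspanins, 10 rose, 2 fell and 3 did not pass the test, with a median difference of 0.31. In this list 7 genes rose, in place of 10, without the signal limit. The number was 8 without replicate 2, without replicate 3, or with each array centred on its median. ITGA2, the integrin α2 subunit of a collagen receptor, rose by 1.68 (SE 0.063), HBEGF, an EGF receptor ligand that binds CD9 as a precursor, by 1.43 (SE 0.054), and PRKCA, a kinase that tetraspanins bring to integrins, by 1.16 (SE 0.088). The rise of HBEGF was 0.79 without the signal limit and that of PRKCA 0.58 with its brightest probe set alone. CD44, the hyaluronan receptor that is paired with CD24 in sorting stem-like cells, rose by 0.31 (SE 0.049, adjusted p = 0.00239). With its brightest probe set alone its difference was -0.019 (adjusted p = 0.810 by limma), and without the signal limit it was 0.17 (adjusted p = 0.0526 by limma). Whether CD44 passed the test thus depends on the probe sets averaged.

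The immunoglobulin superfamily list gave 16 measured genes of 40 on the array. Of these, 4 rose, 7 fell and 5 did not pass the test, with a median difference of -0.082. The largest rises were those of JAM2, a junctional adhesion molecule, by 2.39 (SE 0.11), and of ESAM by 1.65 (SE 0.066). Both were below the signal limit in the untreated group, at 5.85 and 5.43. So was PVR at 6.53, another of the 4 that rose, named for this after its value was seen. Of 16 other mucins and sialomucins on the array, 3 were measured and did not pass the test. Named for this after their values were seen, they were CD164 (-0.13, adjusted p = 0.0884), PODXL (0.14, adjusted p = 0.196) and MUC3A (-0.036, adjusted p = 0.754 by limma).

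Among relatives, partners and proteases of EpCAM, 6 of 13 measured genes rose, 1 fell and 6 did not pass the test, with a median difference of 0.15. In this list 3 genes rose, in place of 6, without replicate 2, without replicate 3, without the signal limit, with each array centred on its median, or at an adjusted p under 0.01. CLDN1, a tight junction claudin, rose by 0.69 (SE 0.056), and SPINT2, a membrane inhibitor of serine proteases, fell by 0.45 (SE 0.053). ADAM17, a protease that sheds the outer part of EpCAM and of L1CAM, rose by 0.42 (SE 0.049, adjusted p = 0.00077). ADAM10, which also sheds L1CAM, differed by -0.071 (adjusted p = 0.276) and did not pass the test. Of 15 measured linkers and co-receptors of the L1 type, 8 rose, 2 fell and 5 did not pass the test, with a median of 0.18. NRP2, a semaphorin co-receptor, rose by 1.60 (SE 0.057) and NF2, the membrane linker merlin, by 1.25 (SE 0.072), while ANK1, an ankyrin that ties membrane proteins to spectrin, fell by 1.02 (SE 0.083). Of these genes, NRP2 (5.54) and NF2 (6.57) were below the signal limit in the untreated group and ANK1 (5.70) in the TGFβ group. NRP2 moved by 0.51 with its brightest probe set, 0.91 without the limit and 2.83 with a limit of 200, and ANK1 by -0.41 without the limit. In this list 5 genes rose, in place of 8, without replicate 2, without the limit or at an adjusted p under 0.01.

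Among other markers of stem-like carcinoma cells, 6 of 9 measured genes rose, 1 fell and 2 did not pass the test, with a median difference of 0.24, where 27.7% of all genes rose. CD44 and PROM2 are among the 6, and 4 rose at an adjusted p under 0.01. The retinaldehyde dehydrogenase ALDH1A3 rose by 0.48 (SE 0.050). PROM2, the relative of PROM1, was measured and rose by 0.24 (SE 0.059, adjusted p = 0.0149), a call that was lost without the signal limit (0.10, adjusted p = 0.271) and without replicate 2 (0.18, adjusted p = 0.113 by limma). Of 10 other measured GPI-anchored proteins, the class of CD24, 5 rose, 2 fell and 3 did not pass the test, with a median of 0.22. PLAUR, the urokinase receptor, rose by 1.27 (SE 0.063) from an untreated level of 5.87, below the signal limit, and NT5E, the ecto-nucleotidase CD73, by 1.15 (SE 0.077).

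**Figure D4:**
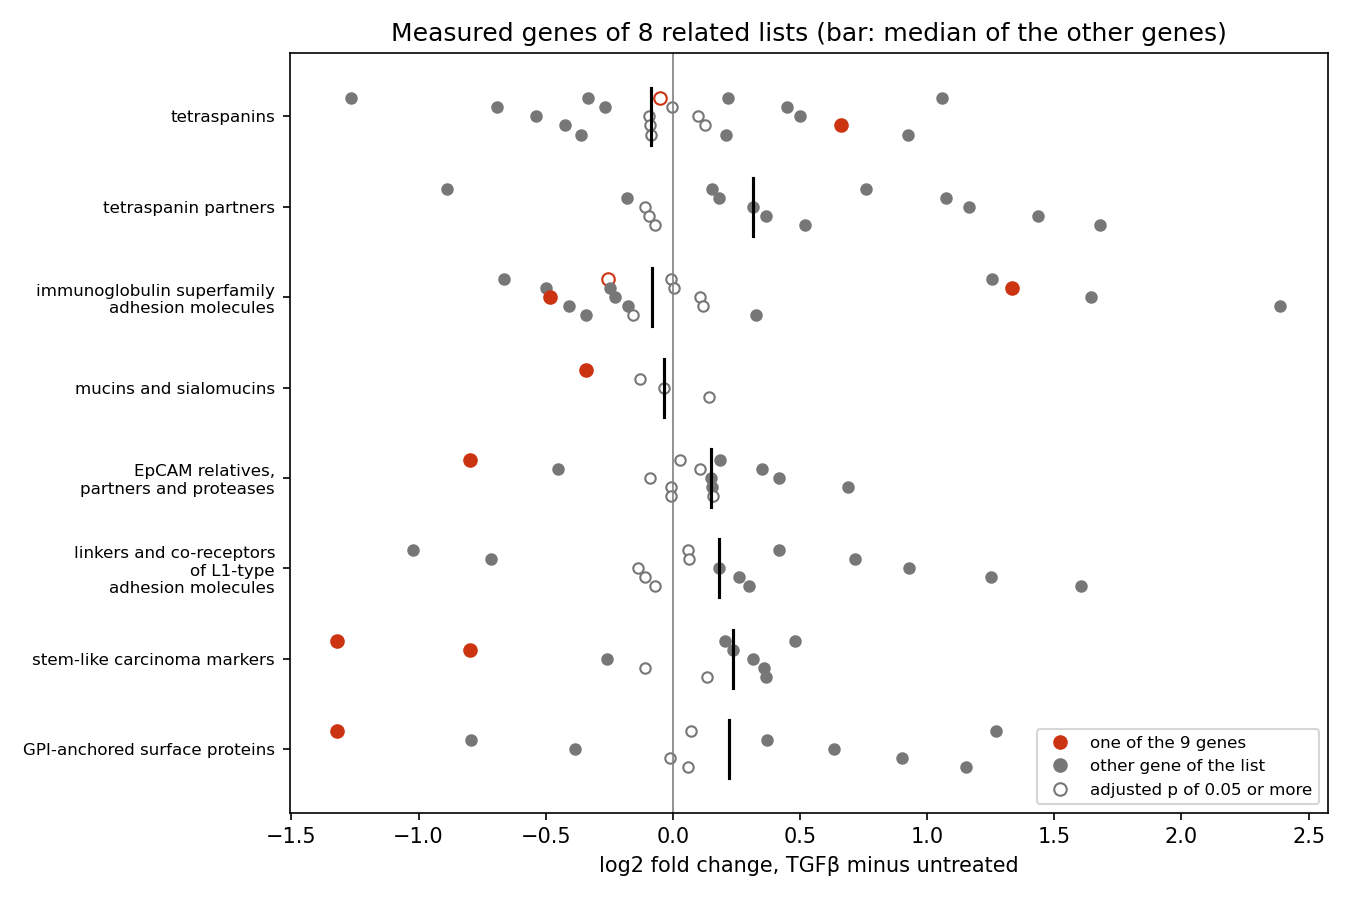
Log2 fold change, TGFβ minus untreated (x axis), of each measured gene in 8 lists of related surface genes (y axis); large red points are members of the 9, grey points the other genes, open points have an adjusted p of 0.05 or more, and the bar is the median of the other genes. The medians lie between -0.086 for tetraspanins and 0.31 for tetraspanin partners, and CD24 and EPCAM lie to the left of the other stem-like markers.

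The genes whose pattern over the 6 arrays was most like that of CD24, by the root mean square difference of centred log2 levels, were NFATC2 (0.038), ZNF395 (0.040) and RNASET2 (0.040). Their differences between the groups were -1.31, -1.27 and -1.35. For MCAM they were PLOD1 (0.056), MYO1D (0.065) and GALNT10 (0.069), with differences of 1.34, 1.26 and 1.31. This ranking used the same arrays as the comparison and is a description.

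Cell identity was read from markers on the same arrays. Of 6 markers of pancreatic duct epithelium, 5 reached the limit in at least 1 group, KRT7, KRT8, KRT18, CDH1 and CLDN4, and KRT19 did not. Their summed signal was 11303 to 11521 on untreated arrays and 4168 to 4401 on TGFβ arrays, so it was lower where EPCAM, CD24 and MUC1 were lower, with KRT8, KRT18, CDH1 and CLDN4 past the test. KRT8 and KRT18 made up 96.3% to 97.9% of it, and the sum of the other 4 genes was 234 to 239 and 155 to 156. KRT7 went the other way, by 0.24 (adjusted p = 0.0569 by limma), with every TGFβ array above every untreated array. Markers of leukocytes reached the limit for 0 of 5 genes on the array. Of 5 neuronal markers only MAP2 did, and the summed signal of that list was 676 to 710 untreated and 1412 to 1528 with TGFβ, whereas L1CAM did not rise. MAP2 itself went from 9.14 to 10.36, and the rest of that list stayed under the limit. The sum therefore does not show a rise of the whole list. In such bulk samples, fewer cells that carry a message and less message per cell cannot be told apart. The 3′ minus 5′ log2 signal of ACTB, a measure of RNA integrity, was 0.55 ± 0.031 untreated and 0.33 ± 0.060 with TGFβ (SD, n = 3), while that of GAPDH was -0.0096 ± 0.0096 and -0.028 ± 0.023. The part of these values in the changes of the 9 genes was not tested.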

How the data were processed

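Total RNA of Panc-1 cells was labelled as biotinylated cRNA and hybridised by the authors to 6 arrays. The table deposited by the authors gave the log2 signal of 54675 probe sets on each array, of which 62 were controls and were left out. The software behind these values, and whether arrays were normalised to each other, are not given in the sources used here. A log2 scale was read from the values. The platform annotation named 1 gene for 41091 probe sets, several for 1801 and none for 11721, and symbols were updated by Entrez ID through RefSeq (19735 of 19777 genes matched).

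After the methods of the study, which use the mean absolute signal, a limit of 100 in 1 group or the other was set. It was applied here to the mean of the log2 signals, so probe sets near the limit can differ from the study's choice. The replicate number was a block because a paired test is stated in those methods. Differences over 10115 genes and 19101 probe sets were tested two-sided with limma 3.58.1 in R 4.3.3 (lmFit, eBayes), with 2 residual and 4.12 prior degrees of freedom for genes, at a Benjamini-Hochberg adjusted p under 0.05. The lowest correlation between arrays of a group was 0.995. The number of arrays limits the precision. The workflow was tested on simulated data. Motifs were searched in Python 3.11.15 (pandas 2.3.3), and matplotlib 3.10.9 drew the figures.

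The members, the gene lists and the tests were chosen with earlier results of these data known. Named were all 9 genes with their probe sets, the 3 changed genes of each list with the largest difference, PROM2, CD63, CD81, CD82, ADAM10, ADAM17 and CD44, and the 3 genes closest in pattern to CD24 and to MCAM. Alternatives covered the replicate block, the signal limit, normalisation, a constant of 16 added before log2, the variance model, the probe sets used, each replicate left out, the threshold and the methods' t-test.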

Additional observations from a re-analysis of the deposited data

Results flagged for a closer look

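Outside the comparison of probe sets that name 1 gene only, 3 probe sets that the platform assigns to both MCAM and MIR6756 gave a higher signal with TGFβ than on the untreated arrays. Probe set 209086_x_at stood at 6.90, 7.12 and 7.21 untreated and at 8.167, 8.004 and 8.043 with TGFβ, a log2 difference of 1.00 (SE 0.093). Probe set 210869_s_at stood at 6.84, 6.84 and 7.24 untreated and at 8.61, 8.29 and 8.43 with TGFβ, a difference of 1.47 (SE 0.11). Probe set 211340_s_at stood at 6.90, 7.13 and 7.30 untreated and at 8.59, 8.22 and 8.43 with TGFβ, a difference of 1.31 (SE 0.12). In each of these 3 the arrays of the groups did not overlap. The fourth shared probe set, 211042_x_at, differed by 0.092 (adjusted p = 0.244 by limma), and its groups overlapped. These probe sets cannot tell the message of MCAM from that of the microRNA gene.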

How the results depend on the processing

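Leaving out the replicate block changed no call among the 9 genes, of which 6 changed with and without it, and gave 6265 changed genes and 11058 changed probe sets. Deviations of same-numbered arrays from their group means correlated at -0.24, 0.24 and 0.11, so the data alone do not show the numbers to pair the arrays. The difference of CD9 turned to 0.0046 without the signal limit, and that of L1CAM became -0.46 and passed the test without replicate 1. Of the 120 values that alternatives other than the methods' t-test gave for the 8 measured genes, the other 118 kept their direction and their side of the threshold. MCAM has no value without probe sets named _x_at, and the other 5 genes that changed kept their calls there. By the methods' t-test on log2 values, 6 of the 9 genes had an unadjusted p under 0.05. The share of all genes at that unadjusted threshold is not given here. On linear values MUC1 was not past it (unadjusted p = 0.0615 by the same t-test). After Benjamini-Hochberg adjustment 3 genes of the 9 (CD24, MCAM and CD151), 2414 genes and 3274 probe sets remained past the threshold on log2 values. On linear values the numbers were 2 (CD24 and CD151), 2337 and 2965. With each replicate left out, the 9 genes gave 6 to 7 changes, all genes 4296 to 6484, all probe sets 7358 to 11696, and L1CAM -0.46 to -0.14. Among other genes, CD63 turned to 0.011 without replicate 1 and to 0.013 without replicate 3 (-0.036 without replicate 2), and CD44 to -0.019 with the brightest probe set; CD82 passed the test without the signal limit (0.19) and without replicate 1 (0.25). Of 120 counts for the related lists, the 9 genes included, 11 moved by over 1.5 times, from 8 to 5 for the EpCAM list, from 10 to 6 for the L1 list and from 1 to 2 for the mucins. With 3 arrays per group and 1 cell line, small differences such as those of L1CAM and CD9 remain within intervals that include 0.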
